A study of Drosophila melanogaster with 12 samples.

Results

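Whole adult control males were compared with whole adult control females, to measure how expression differs between the sexes in flies without *bmm* overexpression. The comparison used 6 of the 12 RNA libraries in the series: control male replicates 1, 2 and 3 and control female replicates 1, 2 and 3, chosen by the sex and genotype in their labels. All 6 came from *da-GAL4/+* flies, which carry 1 copy of the ubiquitous *daughterless* driver and no *UAS-bmm* transgene, so males and females shared the driver. The remaining 6 libraries, from *da-GAL4>UAS-bmm* (*bmm* overexpression) males and females, served only as a second comparison of the sexes. In those flies the driver switches on a transgene of *bmm*, which encodes the triglyceride lipase Brummer. Each replicate pooled 20 whole flies, which had been kept together for 48 h to mature and mate before the sexes were separated and were fed SY10/10 food. The age at freezing was not given in the sources used here for the RNA-seq flies. Since bodies were not dissected, fewer cells of a type and less RNA per cell cannot be told apart in any value below.

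In *Drosophila*, the number of X chromosomes sets whether *Sxl* (*Sex-lethal*) protein is made. *Sxl* acts through *tra* on the splicing of *dsx* and *fru*, which direct the sexual form of the body and the nervous system. In males, the MSL complex and the *roX* RNAs bind the single X chromosome and raise its transcription. Beyond these regulators, males and females differ in whole organs: testis, accessory glands and ejaculatory bulb in males, and ovaries and spermathecae in females.

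The total count lay between 24472531 and 34799635 in the male libraries and between 31787861 and 33856165 in the female libraries. The detection limit was set at 3 counts, worth 0.0792 to 0.11 CPM (counts per 1e+06 counts, after scaling) in males and 0.0982 to 0.102 CPM in females. The sex labels fit the data: 9 of 11 tested Y-linked fertility genes had 0 counts in all 3 female libraries. The matched markers of each tissue were detected except for *Fbp1* of the fat body, *Send2* of the spermatheca and *fln* of the flight muscle. These 3 stayed under 1 CPM in every library. The ejaculatory bulb marker *Peb* was not matched to a gene in the count table. The male libraries stood apart from each other in egg genes. Over 25 yolk protein, vitelline membrane and chorion genes, the median level as a percentage of the control female mean was 4.98% in male replicate 1 (range 3.33% to 8.46%), 1.19% in male replicate 2 (0.821% to 2.16%) and 0.575% in male replicate 3 (0% to 2.99%). In *bmm* overexpression males the same median was 0.205%, 0.143% and 0.163% of the *bmm* overexpression female mean. Male replicate 1 was also the highest male library for *bmm* and for several antimicrobial peptides, whose values are given below. Fold changes of most egg and ovarian genes that were lower in males and are described singly are given with and without male replicate 1.

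**Figure D1:**
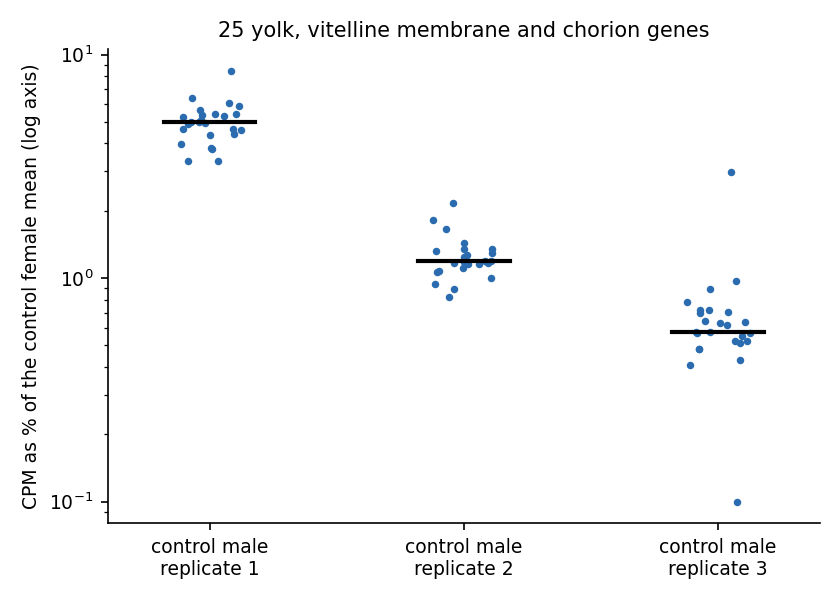
Level of 25 egg genes (3 yolk protein and 22 eggshell genes) in each control male library (dots, 1 per gene), as a percentage of that gene's mean CPM in the 3 control female libraries, on a log axis, with the median as a black bar. Replicate 1 stands at a median of 4.98%, replicate 2 at 1.19% and replicate 3 at 0.575%, and the 1 gene with 0 counts in replicate 3 is drawn at the lowest point of the axis.

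Of 17807 gene symbols in the count table, 13602 passed the expression filter and were tested with edgeR's quasi-likelihood test, whose Benjamini-Hochberg adjusted p-values and log2 fold changes (control males over control females) are given throughout. Calls required an adjusted p under 0.05 and a change of more than 1 on the log2 scale in either direction. By this rule 6032 genes (44.3% of those tested) were higher in males and 3266 genes (24.0%) were lower, together 68.4%, leaving 4304 genes uncalled. All 3 male libraries lay above all 3 female libraries for 6015 of the 6032 genes, and below them for 3264 of the 3266 genes. Without selection, 53.3% of all tested genes had every male library above every female library and 40.0% had every one below. The median log2 fold change of all tested genes was 0.49, and it moved up by 0.12 to 0.29 when the libraries were scaled in other ways. Among genes higher in males, 2896 exceeded a fitted log2 fold change of 4 and 1852 exceeded 8. These counts were 2453 and 906 when genes with 0 female counts were set at their bound against 3 counts in a female library, since a fitted fold is not measured for them. Among genes lower in males, 222 went beyond -4 and 1 went beyond -8. Without male replicate 1 these last counts were 315 and 8, while 2945 and 1845 genes were higher in males beyond 4 and 8. In *bmm* overexpression flies, 333 genes were lower in males beyond -4 and 73 beyond -8. In all 3 female libraries 1476 tested genes had 0 counts, against 2 tested genes with 0 counts in all 3 male libraries. Such genes passed the expression filter only through the other sex, so they could be called in 1 direction only. Male replicate 1 had the highest of the 3 male values for 79.0% of the genes lower in males and for 15.6% of the genes higher in males. Of the 3266 genes lower in males, 3231 were still called without it.

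**Figure D2:**
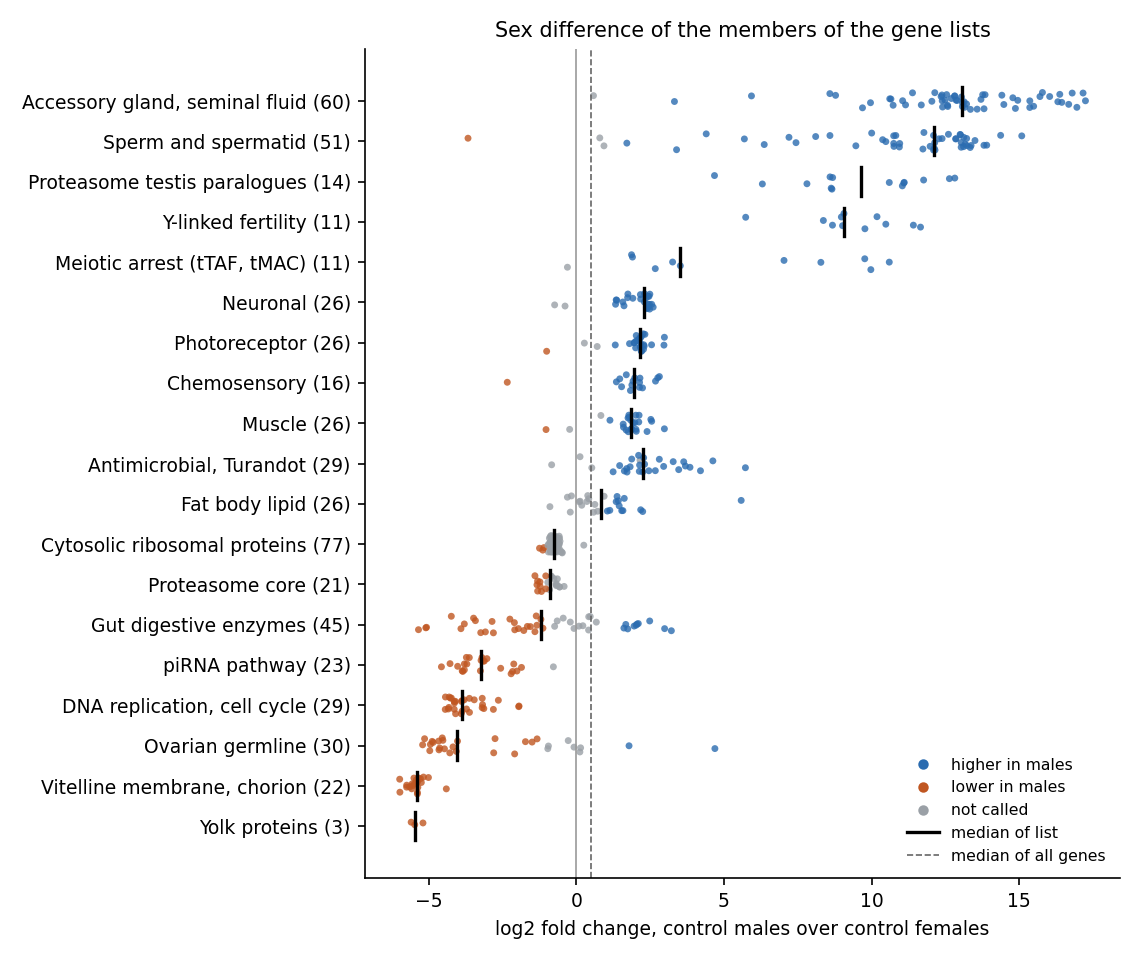
Log2 fold change (control males over control females) of each tested member of 19 gene lists, with the number of members in brackets. Blue dots were higher in males, orange dots lower and grey dots not called, black bars give the list median (13.06 for seminal fluid genes, -5.48 for yolk proteins) and the dashed line gives the median of all tested genes (0.49).

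Genes of the male reproductive tract were prominent among those with the largest excess in males. Among called genes of at least 50 CPM in males, the 10 of largest fitted fold change were *Ebp*, *CG17097*, *EbpII*, *Mst57Da*, *Mst57Db*, *Acp53C14a*, *Acp95EF*, *msopa*, *Acp36DE* and *BG642163*. *Ebp*, a protein of the ejaculatory bulb and of the mating plug (chromosome arm 2R, 25175126 to 25176715 in BDGP6.54, the build of all positions given), was at 2751, 2036 and 1776 CPM in males, against 0 in all 3 female libraries. Against the limit of 3 counts in a female library, that is at least 21349-fold higher in males. Of these 10 genes, only *Acp36DE* had any female read, 1 in all 3 libraries together, so their order follows the male level and is not one of measured folds. Named genes outside the lists with the largest male excess were *Ebp*, *BG642163*, *Met75Cb*, *Anp* and *Met75Ca*. For *Ebp* this depends on how the lists were matched, since the symbol *Peb* of the ejaculatory bulb list was not matched. *Anp*, which encodes andropin, an antibacterial peptide of the male tract, was at 221, 164 and 229 CPM in males, against 0 in all 3 female libraries, which is at least 1996-fold higher. By difference in level, the leading genes were *Cyp4g1*, *ninaE*, *Desat1*, *CG18628* and *Ebp*. *CG18628* was at 2465, 2356 and 2965 CPM in males, against 53.2, 64.1 and 47.8 CPM in females (log2 fold change 5.56 ± 0.15, SE).

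Among called genes of at least 50 CPM in females, the 10 with the largest fall in males were *CG17192*, *CG12374*, *Cp18*, *CG43090*, *Vm26Ab*, *CG32642*, *Vm26Aa*, *Cp16*, *CG31928* and *Mur11Da*. The first 2 are on none of the gene lists. *CG17192* (chromosome arm 3R, 27017180 to 27018287) was at 1.48, 0.847 and 1.39 CPM in males, against 158, 144 and 112 CPM in females (log2 fold change -6.77 ± 0.22, SE). *CG12374* was at 37.0, 23.6 and 21.0 CPM in males, against 1903, 2233 and 1941 CPM in females (log2 fold change -6.22 ± 0.24, SE). For both, the male libraries lay far below every female library, and the fold changes without male replicate 1 were -6.93 and -6.50. Without that library *Vm26Ab* (-7.23) and *Cp18* (-7.19) lay beyond both. The eggshell genes *Cp18*, *Vm26Ab*, *Vm26Aa* and *Cp16* spread more widely among the males. *Cp18*, a chorion protein, was at 76.6, 20.6 and 11.1 CPM in males, against 2448, 1635 and 2820.2 CPM in females (log2 fold change -5.99 ± 0.77, SE, and -7.19 without male replicate 1). Of the genes outside the lists that carry a name rather than a CG or CR number, *ndl*, *Muc12Ea*, *fs(1)M3*, *clos* and *Pxt* led. *ndl* encodes Nudel, a protease of the egg's dorsal-ventral cascade, and was at 5.31, 2.14 and 0.869 CPM in males, against 182, 127 and 126 CPM in females (log2 fold change -5.65 ± 0.51, SE, and -6.60 without male replicate 1). By difference in level, the leading 5 were *Yp1*, *Yp2*, *Yp3*, *Cp38* and *Cp15*.

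Among 16 genes of sex determination and dosage compensation, 4 were higher in males, 6 were lower and 6 were not called (median -0.55, against 0.49 for all genes). The shares higher and lower were 25% and 37.5%, beside 44.3% and 24.0% of all tested genes. The RNAs of the MSL complex stood out. *roX1* (X chromosome, 3857230 to 3862697) was at 486, 530.1 and 576 CPM in males, against 2.23, 2.22 and 2.36 CPM in females (log2 fold change 7.87 ± 0.10, SE, adjusted p = 5.9e-09). *roX2*, the second *roX* RNA, was at 7.66, 6.74 and 7.86 CPM in males, against 0.0655, 0.0342 and 0 CPM in females, where the 3 female libraries held 3 reads in all. *msl-2*, the subunit whose translation *Sxl* blocks in females, was at 32.3, 34.7 and 34.8 CPM in males, against 9.62, 8.54 and 8.55 CPM in females (log2 fold change 1.93 ± 0.08, SE). The other protein subunits did not follow it: *msl-1*, *msl-3* and the acetyltransferase gene *mof* were lower in males (-2.58, -1.64 and -1.12 on the log2 scale), and the helicase gene *mle* was not called at -0.19. The sign for *mle* turned positive with scaling by library size alone (0.056) and by upper quartile (0.10), and *mof* was not called under these 2 scalings. *dsx* was at 71.4, 75.8 and 84.0 CPM in males, against 25.2, 24.9 and 23.0 CPM in females (log2 fold change 1.66 ± 0.08, SE). *fru* (0.95), *tra* (-0.44) and *Sxl* (-0.64) were within the limit of 1 on the log2 scale. These counts per gene do not separate the male and female splice forms through which *Sxl*, *tra*, *dsx* and *fru* act.

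Y-linked fertility genes encode proteins of the sperm tail and of sperm maturation. All 11 tested were higher in males, and *Pp1-Y1* had 0 counts in every library. Of these 11, 9 had 0 counts in every female library and passed the expression filter only through the males. *kl-5*, a dynein heavy chain of the sperm tail, was at 13.7, 13.1 and 12.7 CPM in males, against 0 in all 3 female libraries, or at least 129-fold higher in males. *CCY*, another Y-linked gene required for fertility, was at 9.56, 13.4 and 10.5 CPM in males, against 0 in all 3 female libraries. Of the 19 tested genes that the annotation places on the Y, 18 were higher in males. The exception was the pseudogene *CR41506*, chosen after its values were seen, at 0.581, 0.773 and 0.382 CPM in males, against 2.29, 1.61 and 1.80 CPM in females (log2 fold change -1.71 ± 0.28, SE). *Stellate* repeats encode a casein kinase subunit homologue that is silenced in the normal testis. Of 14 copies, 1 was tested, *Ste12DOR*, at 0.739, 0.479 and 0.661 CPM in males, against 0 in all 3 female libraries. This copy passed the expression filter only through the males.

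Genes of sperm and spermatids were higher in males with few exceptions: of 51 tested, 48 were higher in males, 1 was lower and 2 were not called. Their median log2 fold change was 12.10, or 10.38 with the 12 genes that had 0 female counts set at their detection bound, against 0.49 for all genes. The list took 0.927% to 1.11% of all counts in males and 0.0142% to 0.0153% in females. *S-Lap1*, a leucyl aminopeptidase of sperm, was at 1012, 1177 and 1087 CPM in males, against 0.295, 0.205 and 0.0983 CPM in females (log2 fold change 12.39 ± 0.22, SE). *dj* (*don juan*), a protein of the sperm tail, was at 192, 246 and 214 CPM in males, against 0.0327, 0 and 0 CPM in females, where the female libraries held 1 read in all. *ProtB*, a protamine that packs sperm DNA, was at 43.4, 67.8 and 49.2 CPM in males, against 0.0327, 0.0683 and 0 CPM in females, where the female libraries held 3 reads in all. *bol* (*boule*), a meiotic regulator, had appreciable female reads at 237, 255 and 232 CPM in males, against 22.9, 21.9 and 24.1 CPM in females (log2 fold change 3.39 ± 0.07, SE). The member that was lower in males was *bam*, a gene of germ cell differentiation in both sexes, at 2.53, 1.40 and 1.43 CPM in males, against 23.3, 23.0 and 24.0 CPM in females (log2 fold change -3.67 ± 0.20, SE). *cola* and *swif* had 0 counts in all 6 libraries, and in the BDGP6.54 annotation every exonic base of each lies in the other.

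The testis-specific TAFs and the tMAC complex switch on spermatocyte genes, and their loss arrests meiosis. Of 11 tested genes, 10 were higher in males and *achi* was not called (median 3.52). *sa*, *aly*, *nht* and *comr* had 0 counts in every female library. *aly*, a tMAC subunit, was at 3.83, 4.60 and 3.89 CPM in males, against 0 in all 3 female libraries. *topi*, another tMAC subunit, was read in both sexes at 15.8, 14.0 and 13.9 CPM in males, against 1.44, 1.67 and 1.44 CPM in females (log2 fold change 3.26 ± 0.12, SE).

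Many protein complexes of the fly have a second set of subunit genes used in the testis. All 14 tested testis paralogues of proteasome subunits were higher in males (median 9.64, or 8.08 with the 5 genes at 0 in females set at their bound). The 21 standard proteasome subunits did not follow them: none was higher, 9 were lower and 12 were not called (median -0.91), with every male library below every female library in all 21, beside 40.0% of all genes. The calls of *Prosbeta4*, *Rpt2*, *Rpt3*, *Rpt5* and *Rpt6* were lost with scaling by library size alone or by upper quartile. *Prosalpha6T* was at 28.1, 31.0 and 29.4 CPM in males, against 0 in all 3 female libraries. Its standard counterpart *Prosalpha6* was at 128, 116 and 115 CPM in males, against 309, 290.3 and 294 CPM in females (log2 fold change -1.32 ± 0.06, SE). For oxidative phosphorylation, all 19 tested testis paralogues were higher in males (median 8.53, or 7.88 with 4 genes at their bound), whereas of 17 standard partners 1 was lower and 16 were not called. The median of the standard partners was -0.02 and became positive with scaling by library size alone (0.23) and by upper quartile (0.27). *Cyt-c-d*, the cytochrome c of the male germline, was at 92.1, 101 and 93.1 CPM in males, against 0, 0.0342 and 0 CPM in females. *Cyt-c-p*, the cytochrome c of other cells, was at 258, 260.1 and 259 CPM in males, against 262, 265 and 262 CPM in females (log2 fold change -0.02 ± 0.05, SE), a value whose sign changed with the scaling.

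Tubulin isotypes differed in direction, with 3 of 10 higher in males, 3 lower and 4 not called (44.3% and 24.0% of all tested genes were higher and lower). *betaTub85D*, the beta tubulin of the sperm tail, was at 420.1, 487 and 433 CPM in males, against 0.426, 0.239 and 0.328 CPM in females (log2 fold change 10.38 ± 0.16, SE). *betaTub56D*, the general beta tubulin, was at 479, 453 and 418 CPM in males, against 2124, 2040.5 and 2064 CPM in females (log2 fold change -2.21 ± 0.06, SE). *alphaTub67C*, the maternal alpha tubulin, was at 52.3, 11.7 and 5.81 CPM in males, against 706, 712 and 667 CPM in females (log2 fold change -4.89 ± 0.78, SE, and -6.31 without male replicate 1). Among 14 tested paralogues of ribosomal proteins, 7 were higher in males and 3 were lower, shares close to the 44.3% and 24.0% of all tested genes. The call of *RpL34a* was lost with each of the 3 other scalings and with DESeq2. *RpL10Aa* was at 29.0, 33.7 and 31.4 CPM in males, against 0 in all 3 female libraries, or at least 306-fold higher. *RpS5b*, which is used in the female germline, was at 62.6, 26.7 and 21.3 CPM in males, against 882, 873 and 865 CPM in females (log2 fold change -4.56 ± 0.41, SE, and -5.19 without male replicate 1). Its paralogue *RpS5a* was not called (0.25).

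**Figure D3:**
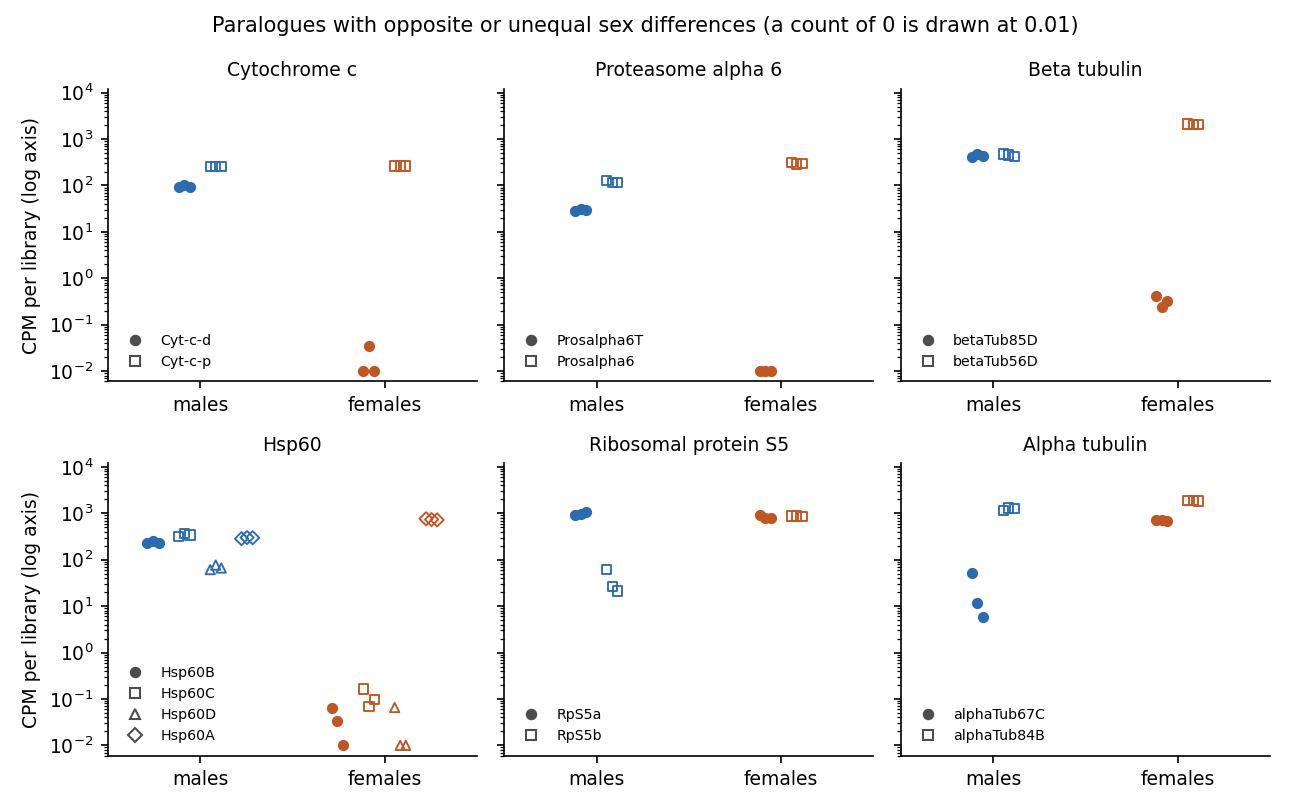
CPM in each of the 3 control male (blue) and 3 control female (orange) libraries for paralogues of 6 proteins, on a log axis, with a count of 0 drawn at 0.01. Within a symbol, the sexes can be compared: *betaTub85D* stood at 420.1 to 487 CPM in males and 0.239 to 0.426 CPM in females, while levels of different genes are not scaled for length.

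Seminal fluid proteins are made mainly by the accessory glands, passed to females at mating and change female behavior and physiology. Of 60 tested genes, 59 were higher in males and *hdly* (0.58) was not called. The median log2 fold change was 13.06, or 9.73 with the 40 genes at 0 in females set at their bound. These 40 genes passed the expression filter only through the males. The list took 1.21% to 1.47% of all counts in males and 0.0121% to 0.0126% in females (two-sided exact permutation test of 3 against 3 libraries, p = 0.1, the smallest p that this design allows). *SP*, the sex peptide that lowers female receptivity, was at 89.6, 85.0 and 92.5 CPM in males, against 0 in all 3 female libraries, or at least 869-fold higher in males. *Acp36DE*, required for sperm storage, was at 1669, 1024 and 1363 CPM in males, against 0, 0 and 0.0328 CPM in females. *Acp26Aa* (ovulin), which raises ovulation, was at 477, 372 and 407 CPM in males, against 0, 0.102 and 0.0328 CPM in females. *Est-6*, an esterase present in both sexes, was at 1024, 845 and 1147 CPM in males, against 101, 98.4 and 103 CPM in females (log2 fold change 3.32 ± 0.11, SE). *SP*, *Mst57Da* and *Acp62F* had 0 reads in all 3 libraries of these mated females, and 0 reads allow up to 3 in a library. In the ejaculatory bulb list all 5 genes were higher in males. *Ebp* was not among these 5, and the list symbol *Peb* was not matched. *EbpII* was at 863, 649.9 and 624 CPM in males, against 0 in all 3 female libraries. *EbpIII* was also read in females, at 1541, 1619.6 and 1800.5 CPM in males, against 298, 287 and 295 CPM in females (log2 fold change 2.49 ± 0.07, SE).

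Yolk proteins are made in the female fat body and in the follicle cells of the ovary, and follicle cells then lay down the vitelline membrane and the chorion. All 3 yolk protein genes and all 22 vitelline membrane and chorion genes were lower in males, with medians of -5.48 and -5.42. Without male replicate 1 these medians were -6.77 and -6.81, and all 25 genes were still called. In *bmm* overexpression flies, where male libraries held less of these RNAs, they were -9.17 and -9.26. *Yp1* (X chromosome, 10053811 to 10055498) was at 1051, 233 and 124 CPM in males, against 18166, 16129 and 17466 CPM in females (log2 fold change -5.20 ± 0.81, SE, adjusted p = 3.6e-04, and -6.59 without male replicate 1). In the annotation, 54.3% of its exonic bases are shared with the antisense gene *asRNA:CR45601*. The yolk genes together took 0.0289% to 0.245% of all counts in males and 3.58% to 4.20% in females (two-sided exact permutation test, p = 0.1). *Cp38*, an early chorion protein, was at 239, 56.3 and 27.8 CPM in males, against 4102, 4883 and 5535 CPM in females (log2 fold change -5.49 ± 0.82, SE, and -6.85 without male replicate 1). *Vm26Aa*, a major vitelline membrane protein, was at 74.0, 19.8 and 9.60 CPM in males, against 2155, 1673 and 1775 CPM in females (log2 fold change -5.75 ± 0.77, SE, and -6.99 without male replicate 1). In each of these genes the male libraries stood in the same order, with replicate 1 highest, and all lay below every female library.

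Spermathecae and parovaria store and sustain sperm in the female. Of 7 tested genes 5 were lower in males (71.4%, beside 24.0% of all genes), *lz* was higher and *Hr39* was not called. *Send1*, a protease secreted by spermathecae, was at 0.871, 0.147 and 0.0695 CPM in males, against 28.2, 29.9 and 24.6 CPM in females (log2 fold change -6.06 ± 0.43, SE, and -7.95 without male replicate 1). *CG9897* was at 0.185, 0.0736 and 0.0695 CPM in males, against 24.3, 22.6 and 18.9 CPM in females (log2 fold change -7.50 ± 0.24, SE, and -8.18 without male replicate 1). *lz*, a transcription factor used in several tissues, was at 3.04, 3.28 and 2.89 CPM in males, against 1.41, 1.47 and 0.95 CPM in females (log2 fold change 1.26 ± 0.20, SE).

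Genes of the female germline and of maternal effect were lower in males in 22 of 30 cases, higher in 2 and not called in 6 (median -4.05, or -4.50 without male replicate 1). *osk* (*oskar*), which assembles the germ plasm, was at 16.0, 2.98 and 1.29 CPM in males, against 243, 245 and 252 CPM in females (log2 fold change -5.14 ± 0.80, SE, and -6.87 without male replicate 1). *bcd* (*bicoid*), the anterior determinant, was at 5.44, 1.73 and 0.417 CPM in males, against 82.9, 84.5 and 84.2 CPM in females (log2 fold change -4.97 ± 0.58, SE, and -6.30 without male replicate 1). *vas* (*vasa*), a helicase of germ cells in both sexes, was at 9.42, 3.57 and 3.09 CPM in males, against 143, 124 and 119 CPM in females (log2 fold change -4.55 ± 0.39, SE, and -5.27 without male replicate 1). The 2 members higher in males were *capu* and *BicC*. *capu*, an actin nucleator, was at 159, 175 and 174 CPM in males, against 45.4, 50.8 and 51.3 CPM in females (log2 fold change 1.78 ± 0.07, SE). *BicC* was at 2.03, 1.29 and 1.22 CPM in males, against 0.0327, 0.102 and 0.0328 CPM in females, and in the annotation 94.8% of its exonic bases are shared with *CG45084*. *cup* had 0 counts in all 6 libraries, and all of its exonic bases are shared with *CG34310* and *cort*. The values of *BicC* and *cup* are therefore uncertain, since the counting could assign their reads to neighbors.

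The piRNA pathway silences transposons in the germline. Of 23 genes, 22 were lower in males, none was higher and *fs(1)Yb* was not called (median -3.23, or -3.52 without male replicate 1). *piwi*, the nuclear Argonaute of the pathway, was at 13.8, 4.86 and 2.99 CPM in males, against 190.3, 168 and 168 CPM in females (log2 fold change -4.57 ± 0.50, SE, and -5.49 without male replicate 1). *aub* (*aubergine*), its cytoplasmic partner, was at 10.6, 7.55 and 6.12 CPM in males, against 121, 119 and 113 CPM in females (log2 fold change -3.85 ± 0.18, SE, and -4.11 without male replicate 1). All 29 genes of DNA replication and the cell cycle were lower in males (median -3.87, or -4.58 without male replicate 1). *CycB* (cyclin B) was at 268, 89.4 and 53.2 CPM in males, against 2654, 2684 and 2603 CPM in females (log2 fold change -4.27 ± 0.58, SE, and -5.22 without male replicate 1). *Mcm5*, a subunit of the replicative helicase, was at 22.8, 8.61 and 4.38 CPM in males, against 263, 273 and 254 CPM in females (log2 fold change -4.44 ± 0.54, SE, and -5.35 without male replicate 1). *stg* (*string*), the phosphatase that starts mitosis, was at 41.8, 10.6 and 4.55 CPM in males, against 367, 390.2 and 393 CPM in females (log2 fold change -4.32 ± 0.74, SE, and -5.67 without male replicate 1).

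Ribosomal protein genes lay slightly lower in males. Of 77 cytosolic ribosomal protein genes, none was higher in males, 3 were lower (*RpL41*, *RpS3A* and *RpS2*) and 74 were not called. The median was -0.77 (-0.52 with scaling by library size alone and -0.48 by upper quartile), and 76 of the 77 had every male library below every female library, beside 40.0% of all genes. They took 7.11% to 7.58% of all counts in males and 10.4% to 10.7% in females. The exception in direction was *RpS5a* (0.25). *RpS2* and *RpS3A* were not called with scaling by library size alone, and none of the 3 was called with upper-quartile scaling.

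Heat-shock and chaperone genes differed in direction. Of 15 tested, 7 were higher in males (46.7%, beside 44.3% of all genes), 6 were lower (beside 24.0% of all genes) and 2 were not called. The calls of *Hsc70-3* and *Hsc70-4* were lost with each of the 3 other scalings, with DESeq2 and in *bmm* overexpression flies. In *bmm* overexpression flies 8 of 16 tested were higher in males and 4 were lower. *Hsp60B*, a mitochondrial chaperonin required for spermatogenesis, was at 229, 250.3 and 232 CPM in males, against 0.0655, 0.0342 and 0 CPM in females (log2 fold change 12.63 ± 0.22, SE). *Hsp60C* (11.55) and *Hsp60D* (11.34) were higher in males too, while *Hsp60A*, the general form, was at 285, 300.2 and 298 CPM in males, against 763, 734 and 721 CPM in females (log2 fold change -1.33 ± 0.05, SE). *Hsp26* and *Hsp27* are small heat-shock proteins that the ovary makes without stress. *Hsp26* was at 106, 61.8 and 46.9 CPM in males, against 986, 1042 and 993 CPM in females (log2 fold change -3.81 ± 0.29, SE, and -4.21 without male replicate 1). *Hsp27* was at 66.4, 36.8 and 34.1 CPM in males, against 589, 630.2 and 636 CPM in females (log2 fold change -3.75 ± 0.26, SE, and -4.13 without male replicate 1). *Hsp83*, the fly Hsp90, was at 1155, 1128 and 1050.3 CPM in males, against 4453, 4103 and 3855 CPM in females (log2 fold change -1.90 ± 0.07, SE). *Hsp22* was listed at 0 in every library, and all of its exonic bases are shared with *CG4456*.

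The head of the fly carries sex-specific fat body, and all 7 genes of the list of sex-differential fat body genes were called. Of these 5 were higher in males (71.4%, beside 44.3% of all genes) and 2 were lower (28.6%, beside 24.0% of all genes). *Cyp4d21* (*sxe1*), a cytochrome P450 of the fat body, was at 56.2, 66.5 and 59.5 CPM in males, against 0.851, 0.786 and 0.787 CPM in females (log2 fold change 6.22 ± 0.11, SE, adjusted p = 6.2e-09). *sxe2*, a predicted lipase, was at 39.7, 41.4 and 45.7 CPM in males, against 0.556, 1.40 and 0.95 CPM in females (log2 fold change 5.45 ± 0.22, SE). *fit* (*female-specific independent of transformer*), a satiety signal of the female fat body, was at 7.68, 3.17 and 4.62 CPM in males, against 166, 103 and 77.5 CPM in females (log2 fold change -4.46 ± 0.39, SE). The odorant-binding protein genes of the cluster at 99 differed in direction, with *Obp99b* (5.19) and *Obp99c* (2.01) higher and *Obp99a* (-1.92) lower in males.

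Cuticular hydrocarbons made by oenocytes keep water in and serve as pheromones. Of 7 tested genes, *Cyp4g1*, *Desat1*, *FASN2* and *FarO* were higher in males, *Fad2* and *eloF* were lower and *FASN3* was not called. The shares higher and lower were 57.1% and 28.6%, beside 44.3% and 24.0% of all tested genes. *Cyp4g1*, the oenocyte P450 that makes hydrocarbons, was at 21414, 16966 and 19654 CPM in males, against 5023, 5044 and 4983 CPM in females (log2 fold change 1.95 ± 0.08, SE). *Desat1*, a desaturase, was at 5035, 4782 and 5392 CPM in males, against 2035, 1861 and 2057 CPM in females (log2 fold change 1.35 ± 0.07, SE). *Fad2* (*desatF*) and *eloF* make the long dienes of females. *Fad2* was at 26.4, 5.49 and 2.96 CPM in males, against 466, 553 and 540.3 CPM in females (log2 fold change -5.46 ± 0.78, SE, and -6.95 without male replicate 1). *eloF* was at 7.66, 3.61 and 1.18 CPM in males, against 135, 139.7 and 142 CPM in females (log2 fold change -5.02 ± 0.50, SE, and -5.87 without male replicate 1). As for eggshell genes, male replicate 1 was the highest of the males for both.

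Of 26 tested genes of fat body lipid storage and transport, 12 were higher in males, none was lower and 14 were not called (median 0.83, against 0.49 for all genes). The share higher in males, 46.2%, was close to the 44.3% of all tested genes. The genes higher in males included *ACC*, *FASN1*, *AcCoAS* and *ATPCL* of fatty acid synthesis and the larval serum protein genes *Lsp1alpha*, *Lsp1beta* and *Lsp2*. *ATPCL* was not called without male replicate 3. *ACC*, acetyl-CoA carboxylase, was at 1289, 1206 and 1393 CPM in males, against 467, 412 and 425 CPM in females (log2 fold change 1.58 ± 0.08, SE). *FASN1*, the main fatty acid synthase of the fat body, was at 3481, 2701 and 3727 CPM in males, against 1464, 1194 and 1237 CPM in females (log2 fold change 1.35 ± 0.13, SE). *Lsp2*, a storage protein, spread widely in females, at 242, 170.3 and 378 CPM in males, against 122, 29.0 and 15.3 CPM in females (log2 fold change 2.25 ± 0.72, SE), and was not called without female replicate 2. The 2 perilipins differed. *Lsd-1*, which guards lipid droplets and recruits lipases, was at 409.7, 290.1 and 417 CPM in males, against 137, 131 and 141 CPM in females (log2 fold change 1.45 ± 0.14, SE). *Lsd-2* was at 488, 414 and 468 CPM in males, against 879, 837 and 836 CPM in females (-0.90, not called), and *Hsl*, hormone-sensitive lipase, was not called at -0.31.

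*bmm* itself (arm 3L, 14776496 to 14786412), the gene overexpressed in the study, was at 470.2, 231 and 189 CPM in males, against 135, 128 and 143 CPM in females (log2 fold change 1.13 ± 0.31, SE, adjusted p = 0.0083). All male libraries lay above all female libraries, but male replicate 1, which also held the most egg gene RNA of the males, was far above the others. Without it the log2 fold change was 0.63 and *bmm* was not called. After a female profile scaled to the level of egg genes was subtracted from each male library, *bmm* was still called. The part of that library's egg gene RNA in this value was not tested further.

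The digestive enzymes of the midgut did not move as 1 group: of 45 tested, 10 were higher in males, 24 were lower and 11 were not called. The shares higher and lower were 22.2% and 53.3%, beside 44.3% and 24.0% of all tested genes. Maltases, which cut maltose into glucose, were higher in males in 9 of 10 cases (median 1.99). *Mal-A1* was at 1325, 1263 and 1399.6 CPM in males, against 220.4, 233 and 260.1 CPM in females (log2 fold change 2.48 ± 0.08, SE). *Mal-A7* was at 464, 309 and 504 CPM in males, against 46.9, 43.4 and 47.0 CPM in females (log2 fold change 3.22 ± 0.18, SE). The exception was *Mal-A5*, at 75.5, 63.7 and 58.6 CPM in males, against 200.3, 188 and 195 CPM in females (log2 fold change -1.56 ± 0.10, SE). The 16 Jonah genes, serine proteases of the midgut, were all lower in males (median -3.16). *Jon25Bi* (arm 2L, 4954279 to 4955144) was at 14.1, 11.2 and 8.87 CPM in males, against 478, 444 and 477 CPM in females (log2 fold change -5.35 ± 0.17, SE). *Jon65Aiv* was at 387, 504 and 397 CPM in males, against 1739.7, 1841 and 1944 CPM in females (log2 fold change -2.10 ± 0.11, SE). Jonah genes took 0.124% to 0.144% of all counts in males and 0.671% to 0.728% in females, while maltases took 0.316% to 0.370% in males and 0.0709% to 0.0789% in females. Of 11 trypsins, 5 were lower in males (45.5%, beside 24.0% of all genes) and 6 were not called. *epsilonTry* was at 16.6, 10.2 and 13.4 CPM in males, against 171, 225 and 211 CPM in females (log2 fold change -3.91 ± 0.19, SE), while *alphaTry* was not called at -0.74. The 2 amylase genes were not called (0.22 and 0.09), and of 5 tested lysozymes 1 was higher and 1 lower in males. Since trypsin and Jonah genes lie in clusters of similar copies, reads shared between copies could be split or left out. In *bmm* overexpression flies 5 of the 10 maltases were higher in males and all 16 Jonah genes were lower.

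**Figure D4:**
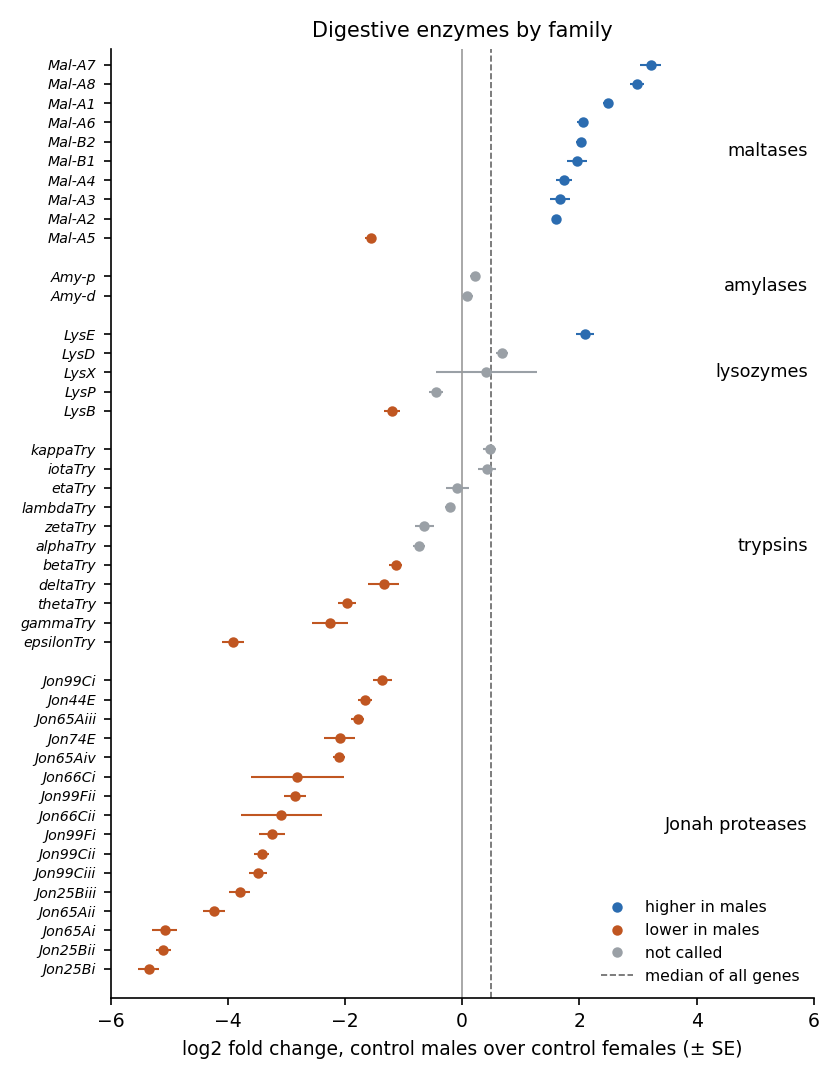
Log2 fold change (control males over control females, ± SE) of 44 digestive enzyme genes by family (*mag* is not shown). Maltases lie to the right of 0 except *Mal-A5* (-1.56), all 16 Jonah proteases lie to the left (-1.36 to -5.35), and the dashed line is the median of all tested genes (0.49).

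Antimicrobial peptide and Turandot genes answer infection and stress. Of 29 tested, 25 were higher in males (86.2%, beside 44.3% of all genes), none was lower (beside 24.0% of all genes) and 4 were not called. Their median was 2.25, against 0.49 for all genes. Every male library lay above every female library for 20 of the 29, beside 53.3% of all genes. Without male replicate 1, 22 were higher and 1 was lower (median 1.81). *CecA1*, a cecropin, was at 119, 105 and 81.5 CPM in males, against 0.949, 3.35 and 1.51 CPM in females (log2 fold change 5.73 ± 0.37, SE). *TotA*, a stress peptide of the fat body, was at 220.5, 205 and 258 CPM in males, against 53.8, 29.8 and 41.1 CPM in females (log2 fold change 2.46 ± 0.21, SE). In both the sexes did not overlap. *DptA* and *AttC*, peptides of the Imd pathway, were highest in male replicate 1, while male replicate 3 lay within the range of the females. Male replicate 1 also held the most egg gene RNA of the males. Both genes were still called after a female profile scaled to the level of egg genes was subtracted from each male library. The part of that RNA in these values was not tested further. *DptA*, diptericin A, was at 702, 60.3 and 11.9 CPM in males, against 1.70, 19.0 and 10.8 CPM in females (log2 fold change 4.62 ± 1.51, SE). *AttC*, an attacin, was at 943, 178 and 41.2 CPM in males, against 11.4, 51.4 and 30.9 CPM in females (log2 fold change 3.64 ± 1.10, SE). *DptA*, *DptB* and *Dro* were not called without male replicate 1 (1.78, 0.99 and 0.54 on the log2 scale). *DptA* and *Dro* were also not called without female replicate 1 or 3, *DptB* without any 1 female library, *AttC* and *CecC* without female replicate 1 and *CecB* without female replicate 3. With limma-voom the calls of *AttB*, *AttC*, *DptA*, *DptB* and *Dro* were lost, and with the replicate number as a block those of *AttC*, *CecB*, *CecC*, *DptA*, *DptB* and *Dro*. *Drs* (drosomycin), the main antifungal peptide of the Toll pathway, was at 143, 129 and 70.9 CPM in males, against 207, 227 and 179.9 CPM in females (log2 fold change -0.84 ± 0.24, SE, not called). Without male replicate 1 it passed the limit, at -1.04. In *bmm* overexpression flies the sign of *Drs* was the opposite (0.97).

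Of 18 genes of insulin and adipokinetic hormone signaling, 9 were higher in males, 2 were lower and 7 were not called. The share higher (50%) was close to the 44.3% of all tested genes, and the share lower was 11.1%, beside 24.0% of all tested genes. *Akh*, the hormone that releases stored fuel, was at 23.9, 20.5 and 19.4 CPM in males, against 4.03, 3.04 and 4.29 CPM in females (log2 fold change 2.49 ± 0.15, SE). *Ilp2*, the main insulin-like peptide of the brain, was at 24.5, 26.8 and 28.2 CPM in males, against 6.25, 5.19 and 5.54 CPM in females (log2 fold change 2.22 ± 0.10, SE). *tobi*, a glucosidase regulated by both hormones, was at 372, 263 and 415 CPM in males, against 62.4, 50.7 and 40.7 CPM in females (log2 fold change 2.77 ± 0.21, SE). *InR*, the insulin receptor, was not called (-0.52). *Ilp8*, a relaxin-like peptide that follicle cells make, was at 15.0, 5.30 and 4.14 CPM in males, against 90.8, 107 and 86.1 CPM in females (log2 fold change -3.51 ± 0.44, SE, and -4.33 without male replicate 1). *Ilp7* (-1.87) was lower too.

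Ecdysone and juvenile hormone genes had a median of -0.18, which became positive with scaling by library size alone (0.07) and by upper quartile (0.12). Of 23 tested, 3 were higher in males, 9 were lower and 11 were not called. The synthesis of ecdysone, which takes place in ovarian follicle cells of adult females, accounted for 5 of the 9: *nvd* (-3.07), *spo* (-5.86), *phm* (-3.41), *dib* (-4.95) and *sad* (-1.08). *spo* (*spook*) was at 0.502, 0.0736 and 0.0695 CPM in males, against 16.7, 13.6 and 12.6 CPM in females (log2 fold change -7.56 without male replicate 1). *sad* (*shadow*) varied among males, at 1.16, 1.69 and 4.24 CPM in males, against 5.04, 4.65 and 5.15 CPM in females. It was not called when male replicate 1, male replicate 2 or any 1 female library was left out. The call of *sad* was also lost with each of the 3 other scalings and with DESeq2. The receptor genes *EcR* (-1.12) and *usp* (-1.36) were lower in males too, although *EcR* was called with none of the 3 other scalings. In the juvenile hormone branch, *jhamt*, an enzyme of its synthesis, was at 7.10, 7.33 and 8.17 CPM in males, against 3.31, 2.80 and 3.15 CPM in females (log2 fold change 1.29 ± 0.13, SE).

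Most listed genes of nerve, sense organs and muscle were higher in males. The shares higher were 92.3% of neuronal, 88.5% of photoreceptor, 93.8% of chemosensory and 88.5% of muscle genes, beside 44.3% of all tested genes. CPM are shares of the counts of a library, so a higher CPM need not mean more of an RNA per fly. Of 26 neuronal genes 24 were higher, none was lower and *Syx1A* and *Csp* were not called (median 2.30). *brp* (*bruchpilot*), a protein of the synaptic active zone, was at 91.3, 101 and 104 CPM in males, against 18.3, 16.7 and 17.6 CPM in females (log2 fold change 2.49 ± 0.07, SE). *Gad1*, which makes the transmitter GABA, was at 84.8, 84.0 and 84.1 CPM in males, against 16.5, 14.3 and 15.2 CPM in females (log2 fold change 2.46 ± 0.07, SE). Of 26 photoreceptor genes 23 were higher in males, 1 was lower and 2 were not called (median 2.16). *ninaE*, the main rhodopsin, was at 6077, 5952 and 6474 CPM in males, against 1341, 1138 and 1325 CPM in females (log2 fold change 2.28 ± 0.08, SE). The 4 members with the lowest values, *rdgA* (1.32), *norpA* (0.70), *rdgB* (0.27) and *inaE* (-1.01), were the 4 X-linked members of the list. *inaE*, a diacylglycerol lipase, lay close to the limit and was not called without male replicate 1 or 2, with the 3 other scalings, with DESeq2 or with a filter at 1 CPM. The 6 X-linked neuronal genes, *para*, *Sh*, *Tbh*, *cac*, *elav* and *comt*, lay between 1.35 and 2.43, with a median of 2.04 against 2.37 for the other 20. Of 16 chemosensory genes 15 were higher in males (median 1.95), led by the antennal odorant-binding protein gene *Obp83b* (2.81). The exception was *ppk29*, a channel subunit, at 1.16, 1.18 and 1.15 CPM in males, against 6.12, 6.05 and 5.57 CPM in females (log2 fold change -2.34 ± 0.14, SE). Of 26 muscle genes 23 were higher in males (median 1.86). *Mhc*, the muscle myosin heavy chain, was at 941, 976 and 1057 CPM in males, against 236, 229 and 223 CPM in females (log2 fold change 2.11 ± 0.06, SE). The 1 muscle gene lower in males was *TpnC4*, at 0.581, 0.589 and 1.11 CPM in males, against 1.51, 1.84 and 1.28 CPM in females, which was not called without male replicate 1 or 2 or female replicate 2, with the 3 other scalings, with DESeq2 or with a filter at 1 CPM. Of 13 tested mitochondrially encoded genes, *mt:ND2* and *mt:srRNA* were higher in males (15.4%, beside 44.3% of all genes) and 11 were not called. *mt:CoI*, a subunit of cytochrome oxidase, was at 0.59 and *mt:lrRNA*, the large ribosomal RNA, was at -0.56 on the log2 scale.

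The X chromosome differed from the autosomes in the balance of calls. On the X, 36.0% of 2137 tested genes were higher in males and 32.8% were lower (median -0.15). On the 4 large autosomal arms together, 45.9% of 11308 genes were higher and 22.5% were lower (median 0.63). The arms ranged from 44.5% higher on 3L to 49.1% higher on 2L. Genes higher in males beyond a fitted log2 fold change of 4 made up 16.5% of the tested genes on the X and 22.2% on the large autosomal arms. These shares include genes with 0 female counts, which have no measured fold and passed the expression filter only through the males. Chromosome 4 had 40.8% higher and 12.2% lower, over 98 genes. Over the X-linked genes that were also tested in the other fit, 36.2% were higher and 33.0% lower without male replicate 1. In *bmm* overexpression flies these shares were 34.5% and 30.9%. Within lists, X-linked members lay lower in some and not in others. The medians were 0.49 for the 4 X-linked photoreceptor genes against 2.19 for the other 22, and 2.04 for the 6 X-linked neuronal genes against 2.37 for the other 20. They were -1.27 for the 4 X-linked standard proteasome genes against -0.85 for the other 17. The 12 X-linked cytosolic ribosomal protein genes had a median of -0.73, against -0.78 for the other 65, and the 2 X-linked muscle genes had 1.95, against 1.85 for the other 24. No seminal fluid gene of the list was X-linked, whereas 10 of the 22 vitelline membrane and chorion genes were. Genes share organs and neighborhoods and are not independent replicates, so no test was made of these shares.

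**Figure D5:**
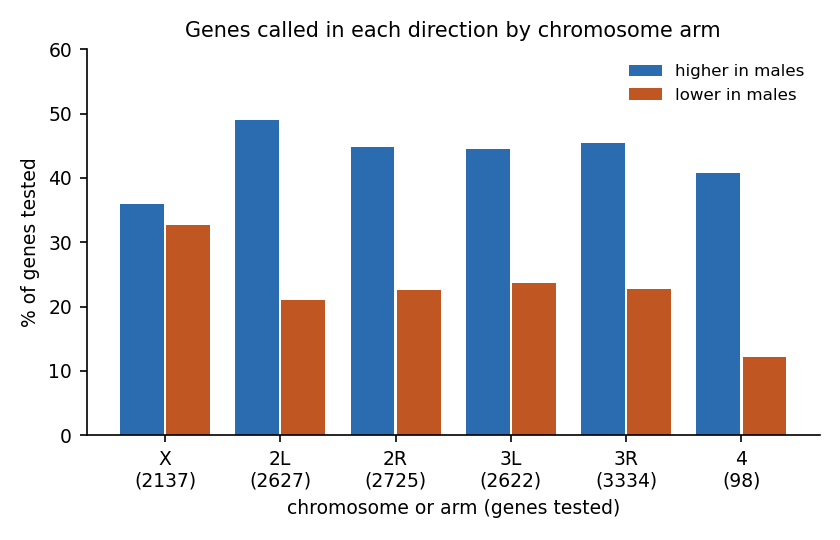
Percentage of tested genes called higher (blue) and lower (orange) in control males on each chromosome or arm, with the number of genes tested. On the X the bars are nearly level (36.0% and 32.8%), whereas on 2L they stand at 49.1% and 21.0%.

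Non-coding RNA genes and protein-coding genes differed in the share higher in males, a difference that was not tested. Of 1270 tested genes annotated as ncRNA, 80.2% were higher and 7.64% were lower (median 5.84), against 40.8% and 25.5% of 12157 protein-coding genes (median 0.26). In all 3 female libraries 42.1% of these ncRNA genes had 0 counts, against 7.63% of the protein-coding genes, and such genes passed the expression filter only through the males. Of 53 small nucleolar RNA genes, 31 were lower in males (58.5%, beside 24.0% of all genes) and 1 was higher. Of those that were also tested in *bmm* overexpression flies, 35.9% were lower there. The sources used here do not give the strand setting of the counting. Where reads were counted without strand, an antisense RNA and the gene it overlaps cannot be told apart.

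The sex difference was repeated in the 6 *bmm* overexpression libraries, which share no sample with the controls. There 5830 genes were higher in males (43.1% of 13535 tested) and 3113 were lower (23.0%). Over 13391 genes tested in both, 5608 were higher in males in both genotypes, which is 95.4% of those higher in control males and 98.0% of those higher in *bmm* overexpression males. In the same way 2958 were lower in both, or 91.4% and 95.3% of each list. No gene was called in opposite directions in the 2 genotypes. The size of the difference was tested between genotypes with an interaction term in edgeR. *Fad2* was at -9.65 in *bmm* overexpression flies and -5.46 in control flies, which passed the test (adjusted p = 0.037). *osk* was at -9.38 in *bmm* overexpression flies and -5.14 in control flies, which did not (adjusted p = 0.058).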

How the data were processed

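RNA from whole control flies was measured in 3 male and 3 female libraries, between 24472531 and 34799635 counts each. Per the labels, mRNA libraries were made with a stranded kit and sequenced in pairs. The authors aligned reads to BDGP6.28 with HISAT2, removed alignments of mapping quality below 60, counted genes with featureCounts and deposited the result as raw counts. Reads that match several near-identical genes could be lost at that filter. The deposited CPM table was not used. Columns were assigned by the labels, and 0 columns belonged to other series.

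Counts were filtered with filterByExpr, scaled by TMM and tested with edgeR 4.0.16 (quasi-likelihood test, R 4.3.3) on the 6 control libraries, contrast males minus females, with Benjamini-Hochberg adjustment over 13602 genes. The test was checked on simulated counts. CPM here are counts over TMM-scaled library sizes. Alternatives used limma 3.58.1, DESeq2 1.42.0, other scalings and filters, a replicate block and each library left out in turn. Nothing in the labels says that replicates came from separate cultures, so p-values measure only the spread between these samples. Replicates differed by more than sampling noise. Bounds and limits cover counting error only.

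Named genes were, in each direction, the 10 called genes of largest fold change with at least 50 CPM in the higher sex and no overlap between sexes, the 5 of largest difference in CPM, the 5 of largest fold change outside the lists that carry a name, *bmm* and members of 33 lists. The members and lists were chosen with earlier results of these data known. Gene symbols were matched to positions in BDGP6.54 (17754 of 17807 symbols) and exon sharing was counted there. Of the list symbols, 6 were not matched, among them *Peb* of the ejaculatory bulb list.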

Additional observations from a re-analysis of the deposited data

Results flagged for a closer look

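For 48 of 736 named or listed genes the sex difference was not the same in both genotypes (interaction term fitted over all 12 libraries in edgeR with its quasi-likelihood test, adjusted p under 0.05 after Benjamini-Hochberg adjustment). Over all 13988 genes in that fit, 407 passed. The interaction is the log2 fold change (males over females) in *bmm* overexpression flies minus that in control flies.

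Among yolk and eggshell genes it was -4.05 for *Yp1*, -3.99 for *Yp2*, -3.10 for *Yp3*, -4.07 for *Cp38*, -3.77 for *Cp15*, -3.58 for *Cp16*, -3.86 for *Cp19*, -4.13 for *Cp36*, -3.64 for *Cp7Fb* and -3.94 for *Cp7Fc*. It was -3.90 for *Vm26Aa*, -3.95 for *Vm26Ab*, -4.12 for *Vm32E*, -4.11 for *Vm34Ca*, -4.60 for *Vml* and -3.95 for *dec-1*. Among other genes lower in males, several of the ovary, it was -4.63 for *CG43090*, -4.20 for *CG32642*, -3.15 for *ndl*, -4.15 for *Pxt*, -3.05 for *swa*, -3.53 for *plu*, -3.92 for *gnu*, -3.47 for *pgc*, -4.04 for *yl*, -1.14 for *squ*, -5.19 for *CG9897* and -4.28 for *Fad2*. For all of these genes the fall in males was larger in *bmm* overexpression flies. Beside these values stand the levels of 25 yolk, vitelline membrane and chorion genes, which were at medians of 0.143% to 0.205% of the female level in *bmm* overexpression males and 0.575% to 4.98% in control males. Their part in these results was not tested. For *CG17192* and *CG12374*, which also fell in males, the interaction was 0.05 and 0.35 (adjusted p = 1 and 0.71).

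In the gut, 8 of 10 maltases had a smaller excess in males in *bmm* overexpression flies, with an interaction of -1.27 for *Mal-A1*, -1.20 for *Mal-A2*, -1.15 for *Mal-A3*, -1.07 for *Mal-A4*, -1.26 for *Mal-A6*, -1.59 for *Mal-A7*, -1.43 for *Mal-A8* and -0.48 for *Mal-B2*. The interaction was -1.03 for *kappaTry*, -0.69 for *lambdaTry* and 0.91 for *Jon25Bii*. In other lists it was -0.74 for *roX1*, -0.65 for *Est-6*, -0.37 for *Obp99c*, -0.48 for *Rh6*, -0.41 for *Act87E*, -0.45 for *ACC*, -0.90 for *CG15068*, -1.23 for *mt:ND2* and 1.63 for *Dgat2*.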

How the results depend on the processing

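The counts of genes higher and lower in males stayed within 1.5 times of 6032 and 3266 under every alternative but 1: when calls rested on the adjusted p alone, 5352 genes were lower in males and 7213 were higher. With 1 library left out in turn, 6064 to 6226 genes were higher and 3273 to 3337 were lower. With the replicate number as a block, 6004 were higher and 3263 were lower. Same-numbered male and female libraries did not deviate together (correlations -0.075, -0.058 and -0.050). These correlations, over 3 libraries a sex, cannot show whether same-numbered libraries were prepared together. The block ended the calls of *AttC*, *CecB*, *CecC*, *DptA*, *DptB* and *Dro* and of no other of the 558 genes compared. Of these, 3 changed sign with a scaling, a filter or DESeq2, or in *bmm* overexpression flies. *Cyt-c-p* was at 0.094 with median-ratio scaling, 0.23 with library size alone, 0.27 with upper quartile, 0.026 with a filter at 1 CPM and 0.094 with DESeq2. *mle* was at 0.056 with library size alone and 0.10 with upper quartile, and *Drs* was at 0.97 in *bmm* overexpression flies. The upper-quartile scaling called 6461 genes higher and 2525 lower, and the share of calls that were higher moved to 71.9%, against 64.9% with TMM. After a female profile scaled to the level of egg genes was subtracted from each male library, 6053 genes were higher and 3365 lower. Of the 3266 genes lower in males, 3264 were still lower, which the subtraction could hardly have changed, since it only lowers male counts. Against values near 0, fold changes after subtraction are unstable. Folds of genes with few or no reads in 1 sex are limited by depth, so bounds or reads are given for them. With 3 libraries a sex, no exact permutation test can fall below 0.1.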
